A study of Mus musculus with 6 samples.

Results

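The genes described are 31 genes of sterol synthesis and of the sterol regulatory element binding proteins (SREBPs), the transcription factors that drive it. They were matched by gene symbol in the platform annotation, and 30 of the 31 were measured, out of 18193 genes on the array. Acat2, the cytosolic acetoacetyl-CoA thiolase at the head of the pathway, was not analysed here. The measured genes were 6 of the mevalonate pathway, 11 of the steps from squalene to cholesterol, 5 that carry or control SREBPs, the sterol transporter gene Stard4 and 7 of fatty acid synthesis and desaturation. Their values are log2 intensities of 1 probe set per gene, the one with the highest mean, and all 30 lay above the median of all probe sets (5.12). Of all 18193 genes, 11326 did so.

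RNA came from mouse CD4 T cells of C57BL/6 lymph nodes, isolated as CD4+CD25- and steered towards a regulatory T cell (Treg) state over 2 days. The plates carried anti-CD3 and anti-CD28, TGF-β1 was at 5 ng/ml and IL-2 at 200 U/ml. On day 1 the cells received a pMIT retrovirus, carrying E47-ER in the E47 group (3 samples) and bHLH-ER in the control group (3 samples). Transduced CD4+Thy1.1+ cells were sorted and both groups were then given 6 hours of 1 µM tamoxifen with IL-2, anti-CD3 and anti-CD28; TGF-β1 is not listed for that step. The transcription factor E47 has a basic helix-loop-helix (bHLH) domain and binds E-box sites, and the ER domain brings a fused protein into the nucleus when tamoxifen is present. The make-up of the bHLH-ER control is known here by name alone, and no sample lacked tamoxifen. Each of 3 independent experiments gave 1 control and 1 E47 sample. The mice were 7, 8 and 9 weeks old in experiments 1, 2 and 3, and 3, 3 and 4 mice were pooled per sample, so experiment, age and pool cannot be told apart.

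Cells make cholesterol from acetyl-CoA through mevalonate, isoprenoids, squalene and lanosterol. When membrane sterol is low, the escort protein Scap carries SREBPs from the endoplasmic reticulum to the Golgi, where proteases release the part that enters the nucleus. Insig proteins hold Scap back when sterol is plentiful. T cells are known to switch this programme on when they are stimulated and begin to grow, and most of the genes described here are textbook SREBP targets.

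All 7 measured CD4 T cell markers lay above the median of all probe sets, as did both CD8 T cell, 1 of 2 NK cell, 1 of 3 B cell, 1 of 6 myeloid, 1 of 4 stromal and 1 of 4 liver and fat markers. Over all genes, 11326 of 18193 did. Foxp3, the factor that defines Treg cells, had log2 levels of 6.42, 8.16 and 6.29 (control 1 to 3) and 6.36, 7.83 and 6.07 (E47 1 to 3), high in experiment 2. The log2 difference between the 3' and 5' control probe sets, a measure of RNA integrity, lay between 0.21 and 0.29 for Actb and between -0.15 and -0.07 for Gapdh on the 6 arrays. In bulk RNA, fewer cells of a type and less RNA per cell cannot be told apart.

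These genes varied more between experiments than between constructs. Most had their lowest levels in the samples of experiment 1, and most had their highest in those of experiment 3. In 19 of the 30 genes both arrays of experiment 1 lay below the other 4, against 6.71% of all genes. In 17 both arrays of experiment 3 lay above the other 4, against 8.5% of all genes. The experiment means stood in the order 1, 2, 3 upwards in 20 of the 30, against 14.1% of all genes. Across the 6 arrays the experiment took a median of 84.9% of a member's sum of squares and the construct 8.46%, where the medians over all genes were 48.2% and 13.9%.

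**Figure D1:**
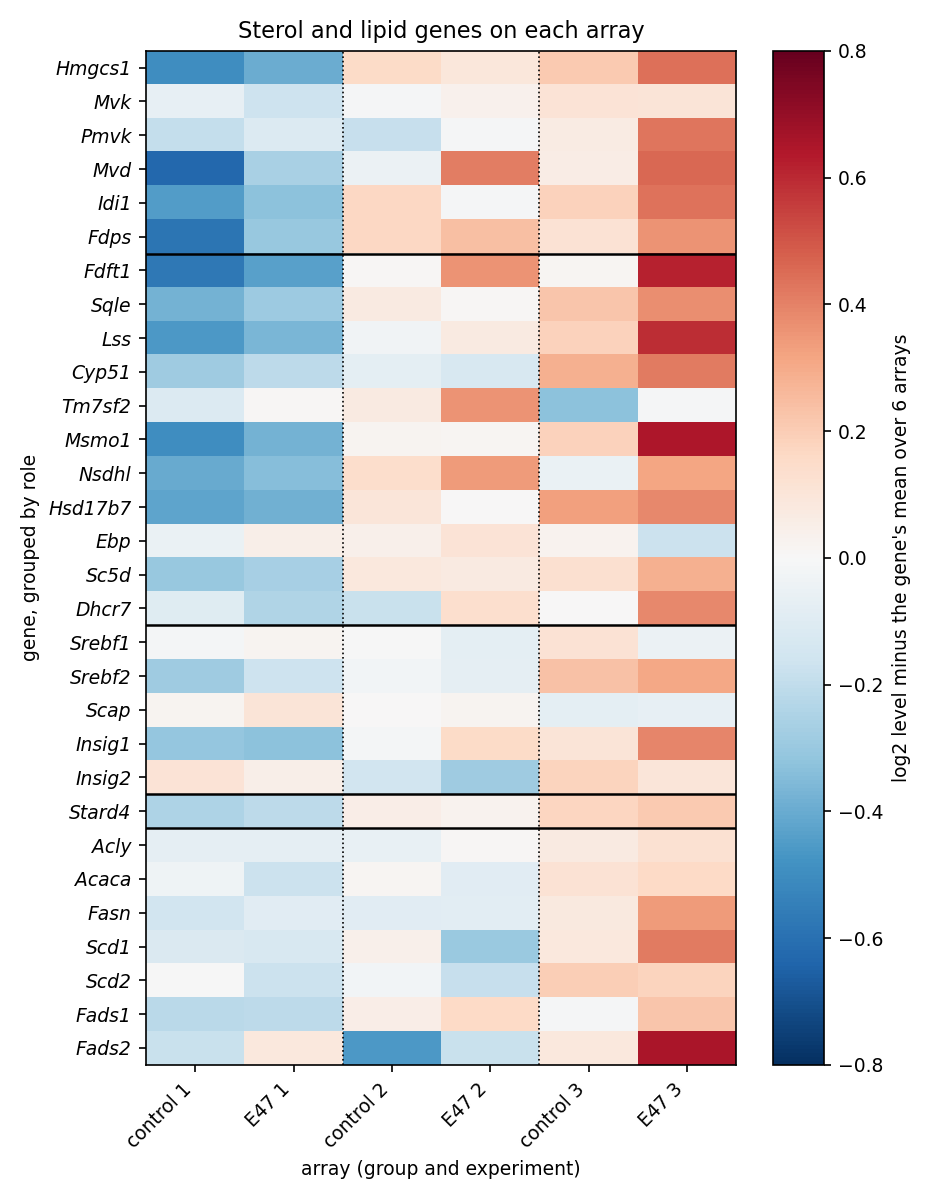
Log2 level of each of the 30 genes (rows, grouped by role, lines between roles) on each of the 6 arrays (columns, ordered by experiment), as the difference from that gene's mean over the arrays; red is above and blue below the mean. The 2 columns of experiment 1 are blue for most sterol genes, and E47 replicate 3 was the highest array for 22 of the 30 (15.8% of all genes).

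The differences between experiments were tested with limma's moderated F test, with the construct as a term, over all 18193 genes. At an adjusted p under 0.05 it called 582 genes, 3.2% of all, and 6 of the 30: Mvd, Hsd17b7, Fdps, Hmgcs1, Lss and Fdft1. At an unadjusted p under 0.05 it held 22 of the 30 (73.3%), against 17.9% of all genes. Among genes brighter than the median, where all 30 lay, the share of all genes was 28%. Some other lists of T cell genes also held many at that level: 6 of 8 Treg and TGF-beta genes, 5 of 7 CD4 markers and 5 of 8 activation genes. Lists of proliferation (4 of 17) and metabolic growth (4 of 10) held fewer. Each experiment is only 2 arrays, and the adjusted calls rested on having all 6. Without control replicate 1 it called 3 of the 30, Fads2, Fdft1 and Lss (4.24% of all genes). Without E47 replicate 1 it called only Fads2 (4.21%), and without any other single array 0 (0.506% to 0.934%). The unadjusted count in those fits lay between 17 and 21 of 30, against 10.1% to 18.7% of all genes. With no group term 0 were called (0.649% of all genes). With the mean over a gene's probe sets 4 were called, Hsd17b7, Mvd, Nsdhl and Sqle (3.32% of all genes). Fdft1 (adjusted p = 0.073), Fdps (0.17), Hmgcs1 (0.0512) and Lss (0.0862) lost their call in limma under that setting.

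Hmgcs1 encodes the cytosolic synthase that makes HMG-CoA, an early step of the pathway. Its log2 levels were 11.71, 12.36 and 12.42 (control 1 to 3) and 11.81, 12.30 and 12.65 (E47 1 to 3). Both samples of experiment 1 were below all others, while control and E47 samples overlapped. The 3 experiments differed (limma F test, adjusted p = 0.0340). The mean of experiment 3 was 1.71-fold that of experiment 1 (contrast in limma, adjusted p = 0.224).

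Mvd, the decarboxylase that makes isopentenyl diphosphate, had log2 levels of 7.48, 8.06 and 8.17 (control 1 to 3) and 7.85, 8.52 and 8.57 (E47 1 to 3). Experiment 1 was again lowest in each group (F test in limma, adjusted p = 0.0245). Experiment 2 was 1.54-fold experiment 1 (limma contrast, adjusted p = 0.0285) and experiment 3 was 1.64-fold (0.195). Fdps, which joins isoprene units into farnesyl diphosphate, had 10.88, 11.63 and 11.58 (control 1 to 3) and 11.16, 11.70 and 11.82 (E47 1 to 3) (log2). Its experiments differed in the limma F test (adjusted p = 0.0319). Experiment 2 was 1.57-fold experiment 1 (limma contrast, adjusted p = 0.032) and experiment 3 was 1.61-fold (0.226). With the mean over its 2 probe sets the spread of Fdps was 0.34 in place of 0.68 on the log2 scale; its other probe set was dim, with experiment means of 2.75, 2.71 and 2.75. In Mvd and Fdps the step lay between experiment 1 and the other two, which differed from each other by 0.08 and 0.04 on the log2 scale.

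Of the other mevalonate genes, Idi1, the isomerase of isopentenyl diphosphate, had experiment means of 12.43, 12.90 and 13.12 (log2 level; F test in limma, adjusted p = 0.0732). Pmvk, the kinase that follows mevalonate kinase, had 8.66, 8.67 and 8.92 (control 1 to 3) and 8.74, 8.84 and 9.28 (E47 1 to 3), so that experiment 3 was the highest in each group (adjusted p = 0.177, limma). Mvk, mevalonate kinase, showed the smallest spread of the group, with experiment means of 7.10, 7.23 and 7.33 on the log2 scale (adjusted p = 0.423, limma).

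Fdft1, squalene synthase, makes the first product committed to sterols. Its log2 levels were 9.95, 10.53 and 10.54 (control 1 to 3) and 10.09, 10.88 and 11.14 (E47 1 to 3). Experiment 1 was below all other samples (limma F test over the 3 experiments, adjusted p = 0.0448). Experiment 3 was 1.76-fold experiment 1 (contrast in limma, adjusted p = 0.248). Of its 3 other probe sets 1 had the same low experiment 1 (means of 9.27, 10.10 and 10.13), and 2 dimmer ones did not (5.64, 5.79 and 5.67 for the brighter, and 5.33 and 5.39 in experiments 1 and 3 for the dimmer). With the mean over all 4 the spread was 0.44 in place of 0.82. Lss, lanosterol synthase, which closes the sterol rings, had 8.89, 9.32 and 9.53 (control 1 to 3) and 8.98, 9.42 and 9.94 (E47 1 to 3). These levels went up from experiment 1 to 2 to 3 in both groups (F test, limma, adjusted p = 0.0417). Experiment 3 was 1.74-fold experiment 1 (contrast in limma, adjusted p = 0.224). A dimmer Lss probe set rose in the E47 samples (5.68, 6.44 and 6.99) and not in the control samples (5.88, 5.96 and 5.77). Another dimmer one rose in both groups, with E47 levels of 5.49, 5.71 and 5.75. Hsd17b7, a sterol 3-keto reductase, also rose from experiment 1 to 2 to 3, with hardly any difference between the constructs. It had 8.59, 9.11 and 9.34 (control 1 to 3) and 8.63, 9.02 and 9.40 (E47 1 to 3) (log2 level, adjusted p = 0.0291, limma F test).

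**Figure D2:**
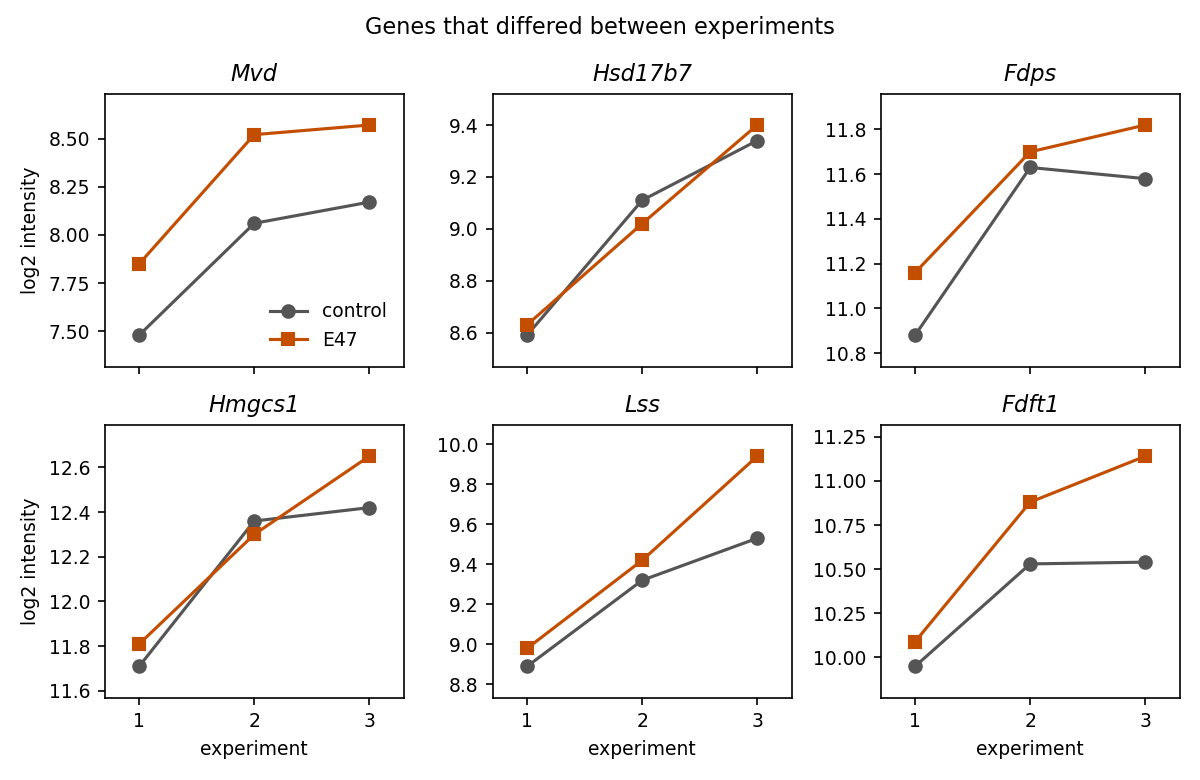
Log2 intensity (y axis, a separate range for each gene) of the 6 genes past the limma F test, by experiment (x axis), with control samples as grey circles and E47 samples as orange squares, 1 sample each, and lines joining the samples of a group. Each gene is lowest in experiment 1 in both groups; Mvd and Fdps level off from experiment 2, Lss and Hsd17b7 do not.

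A further 4 genes of the squalene to sterol steps lay just outside the threshold. Msmo1, the C4-methyl sterol oxidase, had the largest spread of all 30, with log2 means of 10.05, 10.50 and 10.90 in experiments 1 to 3 (limma F test, adjusted p = 0.0528). Cyp51, lanosterol demethylase, had 11.01, 11.15 and 11.61 (adjusted p = 0.0551 in limma), with the larger step before experiment 3. Sqle, squalene epoxidase, had 10.12, 10.49 and 10.75 (0.0576) and Nsdhl, a sterol dehydrogenase, 8.71, 9.32 and 9.21 (0.0650), all as log2 means of 2 samples.

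Sc5d, the sterol desaturase, followed the same order (10.26, 10.62 and 10.75; adjusted p = 0.0957, limma F test), and Dhcr7, which makes cholesterol in the last step, varied less (8.42, 8.56 and 8.78; adjusted p = 0.401). Stard4, a carrier of sterol between membranes, had log2 levels of 9.94, 10.24 and 10.36 (control 1 to 3) and 9.98, 10.22 and 10.40 (E47 1 to 3); the experiment took 98.8% of its sum of squares. The remaining sterol enzymes did not share the pattern. Ebp, the sterol isomerase, had experiment means of 10.55, 10.62 and 10.48, and Tm7sf2, a sterol reductase, was highest in experiment 2 in both groups: 6.79, 6.97 and 6.57 (control 1 to 3) and 6.91, 7.26 and 6.89 (E47 1 to 3) (log2 level).

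Among the genes that carry or control SREBPs, Srebf2 and Insig1 had the order of the enzymes, and Srebf1, Scap and Insig2 had other orders. Srebf2, which encodes the SREBP most tied to sterol synthesis, had log2 levels of 9.76, 10.02 and 10.28 (control 1 to 3) and 9.88, 9.97 and 10.35 (E47 1 to 3), with both samples of experiment 3 above the other 4 and a mean 1.41-fold that of experiment 1 (adjusted p = 0.101, limma F test). Its other probe set, also above the median of all probe sets, did not have that order (7.47, 7.56 and 7.50), and with the mean of both the spread was 0.26 in place of 0.50 (adjusted p = 0.373, limma). Insig1, itself an SREBP target that feeds back on Scap, had 10.05, 10.34 and 10.46 (control 1 to 3) and 10.03, 10.51 and 10.75 (E47 1 to 3) (adjusted p = 0.0989, F test in limma). Neither passed the threshold over all genes.

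Srebf1, the SREBP most tied to fatty acid synthesis, had the smallest spread of the 30: its log2 levels were 9.97, 9.98 and 10.10 (control 1 to 3) and 10.01, 9.91 and 9.94 (E47 1 to 3) (adjusted p = 0.892, limma F test). Scap had 9.84, 9.82 and 9.74 (control 1 to 3) and 9.92, 9.84 and 9.75 (E47 1 to 3), and was the 1 gene of the 30 with both arrays of experiment 1 above the others (8.28% of all genes) and both of experiment 3 below (7.54%). Its range was narrow, 0.13 on the log2 scale (limma F test, adjusted p = 0.696). A second Scap probe set, below the median of all, had means of 5.12, 4.54 and 4.73, and with the mean of both the spread was 0.32. Insig2 had 8.56, 8.30 and 8.63 (control 1 to 3) and 8.50, 8.17 and 8.55 (E47 1 to 3), lowest in experiment 2 in both groups, where 15.6% of all genes had both arrays below the other 4.

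The 7 fatty acid genes shared the order more weakly, and the difference lay mostly in experiment 3. Their median difference between experiments 3 and 1 was 0.32 on the log2 scale and between experiments 2 and 1 0.04, where the 6 mevalonate genes had 0.69 and 0.52 and the 11 squalene to sterol genes 0.60 and 0.37. Over all genes these medians were 0.00 and -0.00. Fasn, fatty acid synthase, had log2 means of 10.33, 10.37 and 10.66 in experiments 1 to 3 (limma F test, adjusted p = 0.241). Acly, which supplies cytosolic acetyl-CoA to both pathways, had 11.59, 11.64 and 11.76, and Acaca, acetyl-CoA carboxylase, 8.57, 8.63 and 8.81.

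The stearoyl-CoA desaturase genes Scd1 and Scd2 stood at 9.78, 9.78 and 10.16 and at 12.73, 12.71 and 13.00 (log2 means of experiments 1 to 3). Fads1, the delta-5 desaturase, had 7.44, 7.76 and 7.76. Fads2, the delta-6 desaturase of polyunsaturated fatty acids, had 7.13, 6.85 and 7.39 (control 1 to 3) and 7.39, 7.13 and 7.96 (E47 1 to 3), low in experiment 2 and high in experiment 3. It was the 1 gene of the 30 called higher in experiment 3 than in 2 (log2 difference 0.69, adjusted p = 0.0280, limma; 2% of all genes), and 0 were called lower (2.29%). At an unadjusted p under 0.05 that contrast held 11 higher genes (10.3% of all) and 1 lower, Tm7sf2 (8.24%).

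By contrast of experiments in the same limma fit, experiment 2 was above experiment 1 in 3 genes at an adjusted p under 0.05, Fdps, Nsdhl and Mvd (1.32% of all genes called higher), and in 15 at an unadjusted p under 0.05 (7.65%). It was below experiment 1 in 0 after adjustment (1.41%) and in 1, Insig2, before it (10.3%). Experiment 3 was above experiment 1 in 0 members after adjustment in limma (0% of all genes; lower 0.0055%). At an unadjusted p under 0.05 it was above in 22 of the 30, where 4.02% of all genes were, and below in 0 (4.05%). Experiment 3 exceeded experiment 1 in 27 of the 30 as deposited, and in 27 under median centring, quantile normalization and cyclic loess. As deposited, the median difference between experiments 3 and 1 was 0.42 in log2 over the members and 0.00 over all genes. The share of all genes with experiment 3 above experiment 1 was not counted.

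Markers of other cells also differed between experiments, in another order. Klrd1, an NK and effector cell receptor gene, had log2 levels of 7.13, 8.79 and 6.68 (control 1 to 3) and 7.21, 8.35 and 6.92 (E47 1 to 3) (limma F test, adjusted p = 0.0108), and Cd8a had 6.21, 6.68 and 5.79 and 6.21, 7.17 and 6.02 (0.0289). Ms4a1, a B cell gene, was dim at 4.61 to 5.51 and also highest in experiment 2 (0.0491). The other B cell markers did not pass, Cd22 (adjusted p = 0.554, limma) and Cd79a (0.573), and among E47 samples neither was highest in experiment 2 alone. The mean log2 level of the 2 measured NK markers lay between 5.28 and 5.50 in experiments 1 and 3 and at 6.30 and 6.02 in experiment 2. That difference was in Klrd1, since Ncr1 was dim, at 3.70 to 3.89, and lowest in experiment 2 in both groups. That of the 2 CD8 markers lay between 6.10 and 6.55 in experiments 1 and 3 and at 6.71 and 7.34 in experiment 2, and that of the 3 B cell markers ran from 4.70 to 5.27. The mean log2 level of the 7 CD4 T cell markers was lowest in experiment 3, at 10.91, 10.95 and 10.60 (control 1 to 3) and 11.06, 11.15 and 10.85 (E47 1 to 3), with median differences of -0.28 between experiments 3 and 1 and -0.34 between 3 and 2. Of these 0 passed the F test in limma after adjustment (3.2% of all genes) and 5 of 7 had an unadjusted p under 0.05 (17.9% of all genes). Klrd1, Cd8a and Ms4a1 thus set experiment 2 apart and the CD4 markers, in their mean, experiment 3, while the sterol genes set experiment 1 lowest and experiment 3 highest; the part of these markers in the result was not tested.

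Co-variation from array to array was described with correlations after the group means were removed. These rest on 6 arrays with 4 free deviations, and the 2 arrays of an experiment share its mouse age and handling, so no p is given. The median Pearson r over the 435 pairs of members was 0.77, and over all pairs of genes 0.02. An r of at least 0.9 was reached by 28.3% of member pairs and 2.64% of all pairs. Against the mean of the other 29 genes, 16 members had r of at least 0.9. Lss (1.00), Sqle (0.99), Msmo1 (0.99) and Hsd17b7 (0.99) headed the order, with Insig1 (0.98), Stard4 (0.98) and Srebf2 (0.95) among the enzymes. Fads2 (0.52) was the lowest of the lipid enzymes that followed the set, and Insig2 (0.06), Srebf1 (0.03), Tm7sf2 (-0.23), Ebp (-0.43) and Scap (-0.95) did not follow it.

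**Figure D3:**
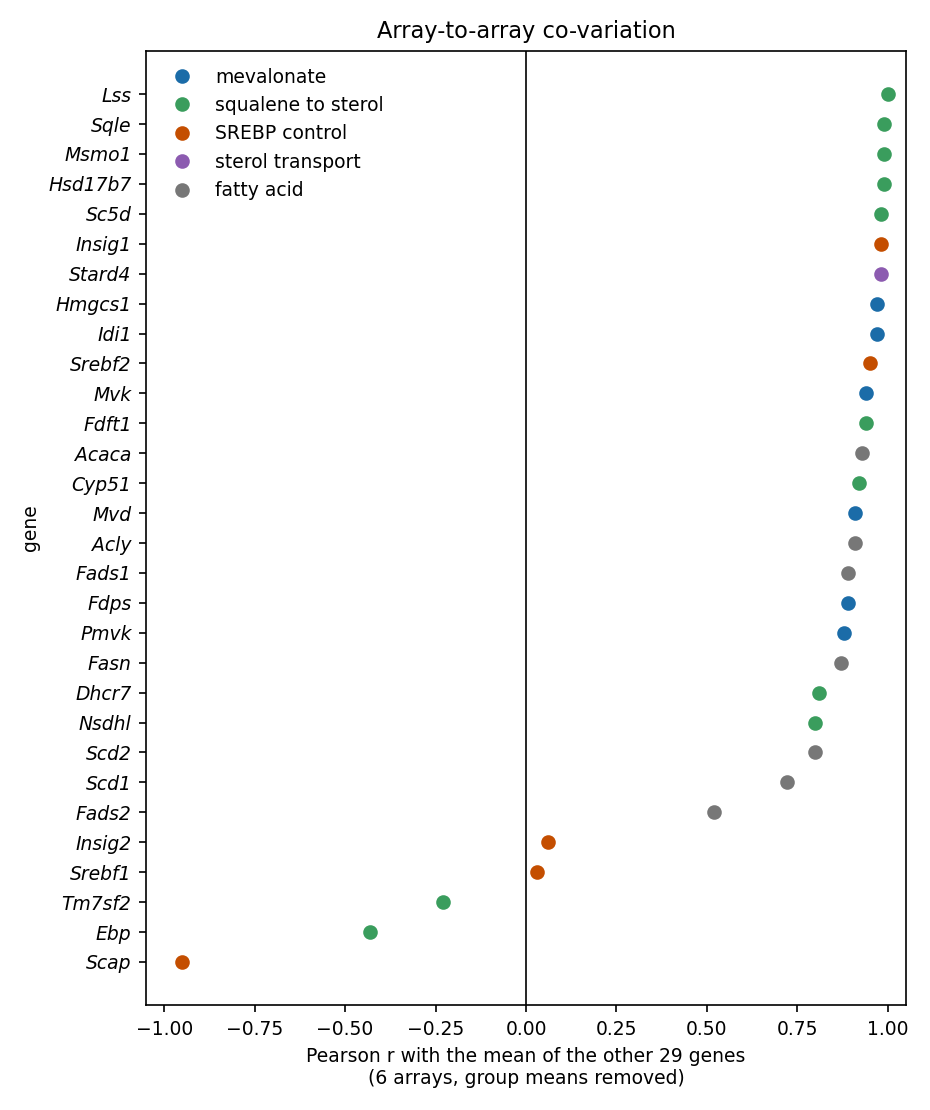
Pearson correlation (x axis) of each gene (y axis, ordered by r) with the mean of the other 29, over 6 arrays after removal of the group means, coloured by role. Most enzymes sit near 1, Insig2 and Srebf1 near 0 and Scap at -0.95, although Scap varied by only 0.13 in log2 between experiments.

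A second look used the other probe sets, since 21 members had more than 1. Of 30 further probe sets above the median of all probe sets, 29 had a higher mean in experiment 3 than in experiment 1, and 14 had both arrays of experiment 1 below the other 4. They measure the same genes on the same arrays, so they are not independent of the first. Some of the 29 differences were close to 0, as for Srebf2 (7.475 in experiment 1 and 7.503 in experiment 3) and 1 of Fdft1 (5.639 and 5.674). With 1 probe set per gene, 6.71% of all genes had experiment 1 below the other 4, and the shares over all probe sets were not counted. Of the 9 dimmer ones, 4 were higher in experiment 3 and 0 had experiment 1 below the rest. By sign the exceptions were thus 1 brighter and 5 dimmer probe sets, while the stricter count left out many of both kinds.

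Because so many members moved together, the promoter sequences of RefSeq (GRCm38.p6) were searched for the letters SREBPs and their partners are known to bind. Entries of 250 bases before to 50 after a start site were found for 24 of the 31 genes, in 32 windows. CCAAT (or ATTGG on the other strand), the box bound by NF-Y, which works beside SREBPs at many sterol promoters, was in at least 1 window of 20 of the 24 genes (83.3%). Among all 27025 genes with an entry, 41.1% had it, and of all 32851 windows 37.4%, against 65.6% of the members' windows. The members without it were Acaca, Acat2, Fads2 and Scap. Against the mean of the other members, Acaca had r of 0.93, Fads2 of 0.52 and Scap of -0.95. Ebp (-0.43), Tm7sf2 (-0.23), Srebf1 (0.03) and Insig2 (0.06) held the box and did not follow the set, while the other measured members with it did. Whether the box goes with the co-variation was not tested. The sterol regulatory element core TCACNCCAC was found in 1 of the 24, Hmgcs1, and in 1.24% of all windows; other forms of the element were not searched. The GC box GGGCGG was in 21 of 24 genes (38.2% of all genes).

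E47 binds E-boxes, CANNTG, and these were in 18 of the 24 genes, 75% of them, the same share as over all genes (75%). The forms CAGGTG (with CACCTG; 6 of 24, 22.6% of all genes) and CAGCTG (4 of 24, 18.3%) are both part of CANNTG, as is CACGTG, which SREBPs can also bind (5 of 24, 8.09%). A match of letters is a description of the window and not a binding site. The bases before the start site are shown for the genes past the F test that had an entry, and for Scap, which ran the other way, with CCAAT or ATTGG in capitals and, in Hmgcs1 alone, TCACCCCAC; each ends before the first base of the gene's annotation (all GRCm38.p6, 5′ to 3′ on the strand of the gene).
Hmgcs1 (chr13:119690101-119690350, plus strand): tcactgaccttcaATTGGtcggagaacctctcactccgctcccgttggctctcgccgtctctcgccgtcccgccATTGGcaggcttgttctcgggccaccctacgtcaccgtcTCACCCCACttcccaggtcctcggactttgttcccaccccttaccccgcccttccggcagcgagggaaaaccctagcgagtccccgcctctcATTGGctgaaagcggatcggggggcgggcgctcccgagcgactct
Mvd (chr8:122443423-122443672, minus strand): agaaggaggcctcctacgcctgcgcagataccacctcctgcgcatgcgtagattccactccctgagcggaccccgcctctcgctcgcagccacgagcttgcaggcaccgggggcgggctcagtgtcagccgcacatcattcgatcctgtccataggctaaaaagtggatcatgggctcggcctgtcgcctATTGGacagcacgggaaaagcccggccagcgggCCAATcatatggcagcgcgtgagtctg
Hsd17b7 (chr1:169969243-169969455, minus strand): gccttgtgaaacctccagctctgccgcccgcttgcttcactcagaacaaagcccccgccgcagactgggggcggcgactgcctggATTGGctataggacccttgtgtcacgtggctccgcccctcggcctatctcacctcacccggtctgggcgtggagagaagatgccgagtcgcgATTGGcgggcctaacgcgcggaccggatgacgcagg
Lss (chr10:76531355-76531564, plus strand): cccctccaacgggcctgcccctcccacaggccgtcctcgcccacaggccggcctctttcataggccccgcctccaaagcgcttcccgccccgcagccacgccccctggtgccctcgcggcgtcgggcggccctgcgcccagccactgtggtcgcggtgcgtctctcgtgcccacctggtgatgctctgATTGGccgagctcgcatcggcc
Scap (chr9:110333038-110333287, plus strand): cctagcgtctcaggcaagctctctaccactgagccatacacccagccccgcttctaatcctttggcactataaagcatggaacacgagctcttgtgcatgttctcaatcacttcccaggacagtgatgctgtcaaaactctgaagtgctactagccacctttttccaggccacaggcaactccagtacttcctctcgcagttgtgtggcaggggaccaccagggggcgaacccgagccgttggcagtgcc
Counted from the start site, the element core of Hmgcs1 begins at -137 and its nearest upstream ATTGG at -45. The Mvd boxes begin at -60 and -27, and the Scap stretch holds neither sequence.

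E47 samples were then set against control samples to ask whether the construct changed these genes. None of the 30 passed limma over all genes without a block for the experiment, where 45 genes, 0.247% of all, were called. At an unadjusted p under 0.05 there were also 0 of 30, against 6.65% of all genes. This fit counts differences between experiments as error, and its median SE was 0.17 for the members and 0.11 for all genes. The 0 of 30 therefore does not show that the members responded less than other genes. With the replicate number as a block, 0 of 30 were called (1.14% of all genes, 208 in number; 0.781% higher in E47), and 4 had an unadjusted p under 0.05, all higher in E47 (12% of all genes in either direction): Mvd, Fads2, Fdft1 and Tm7sf2. That is 13.3% of members, against 5.1% of all genes higher at that level. With the experiment as a random block 0 were called and 1 had an unadjusted p under 0.05, against 92 and 2068 of all 18193 genes.

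The sizes were small. Log2 fold changes ran from -0.11 (Scd2) to 0.41 (Mvd), 23 of them above 0, with a median of 0.07. Over all genes 42.3% were above 0 and the median was -0.03. In all 30 the spread between experiments was larger than the difference between constructs, as in 77.1% of all genes. No member had all E47 samples above all control samples (4.65% of all genes did) or all below (7.13%). Large differences between experiments make such a separation less likely, so these counts also do not compare the response to E47.

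Mvd had the lowest p of the set. Its pair differences, E47 minus control in log2, were 0.37, 0.46 and 0.40 in experiments 1, 2 and 3, so each E47 sample was above its own control by a like amount. The log2 fold change was 0.41 (SE 0.24, adjusted p = 0.825 in limma without a block), and with the block the SE was 0.08 (adjusted p = 0.0883, 95% interval of the log2 fold change 0.22 to 0.59). Fads2 had pair differences of 0.26, 0.29 and 0.57 (log2 fold change 0.37, SE 0.09 with the block, adjusted p = 0.201, limma). For Fdft1 they were 0.14, 0.35 and 0.60 (0.36, SE 0.11 with the block, adjusted p = 0.268, limma). The probe sets of Fdft1 disagreed in sign, with log2 fold changes of 0.36, 0.25, -0.23 and -0.27, and their mean gave 0.03. Those of Fads2 had 0.37, -0.04 and 0.33, and their mean gave 0.22.

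Tm7sf2 had pair differences of 0.12, 0.28 and 0.32 (log2 fold change 0.24, SE 0.08 with the block, adjusted p = 0.345 in limma). Pmvk had 0.07, 0.18 and 0.36 (0.20, SE 0.09 with the block, limma adjusted p = 0.442). Of the 30, 12 were higher in E47 in all 3 pairs, against 14.4% of all genes, and 2, Insig2 and Scd2, lower in all 3, against 20.2%. Over the blocks, scalings and left-out arrays the adjusted p in limma ran from 0.0883 to 1 for Mvd, from 0.127 to 1 for Fads2, from 0.102 to 1 for Fdft1, from 0.204 to 1 for Tm7sf2 and from 0.263 to 1 for Pmvk. The counts of pairs concern the sign alone, and several of the 12 had differences close to 0, such as Scap (0.08, 0.02 and 0.01).

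The pair differences were not alike in the 3 experiments. E47 was the higher sample in 23 of 30 genes in experiment 1 (52.1% of all genes), 16 of 30 in experiment 2 (43.2%) and 25 of 30 in experiment 3 (42.2%), with medians of 0.07, 0.01 and 0.23 in log2. Over all genes the medians were 0.01, -0.03 and -0.04. In experiment 3 the squalene to sterol genes had a median difference of 0.32, with Fdft1 (0.60), Msmo1 (0.46) and Lss (0.41) at the top and Ebp (-0.19) at the bottom. Scd1 turned from -0.34 in experiment 2 to 0.34 in experiment 3. With 1 pair per experiment, whether the effect of the construct differed between experiments could not be tested.

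**Figure D4:**
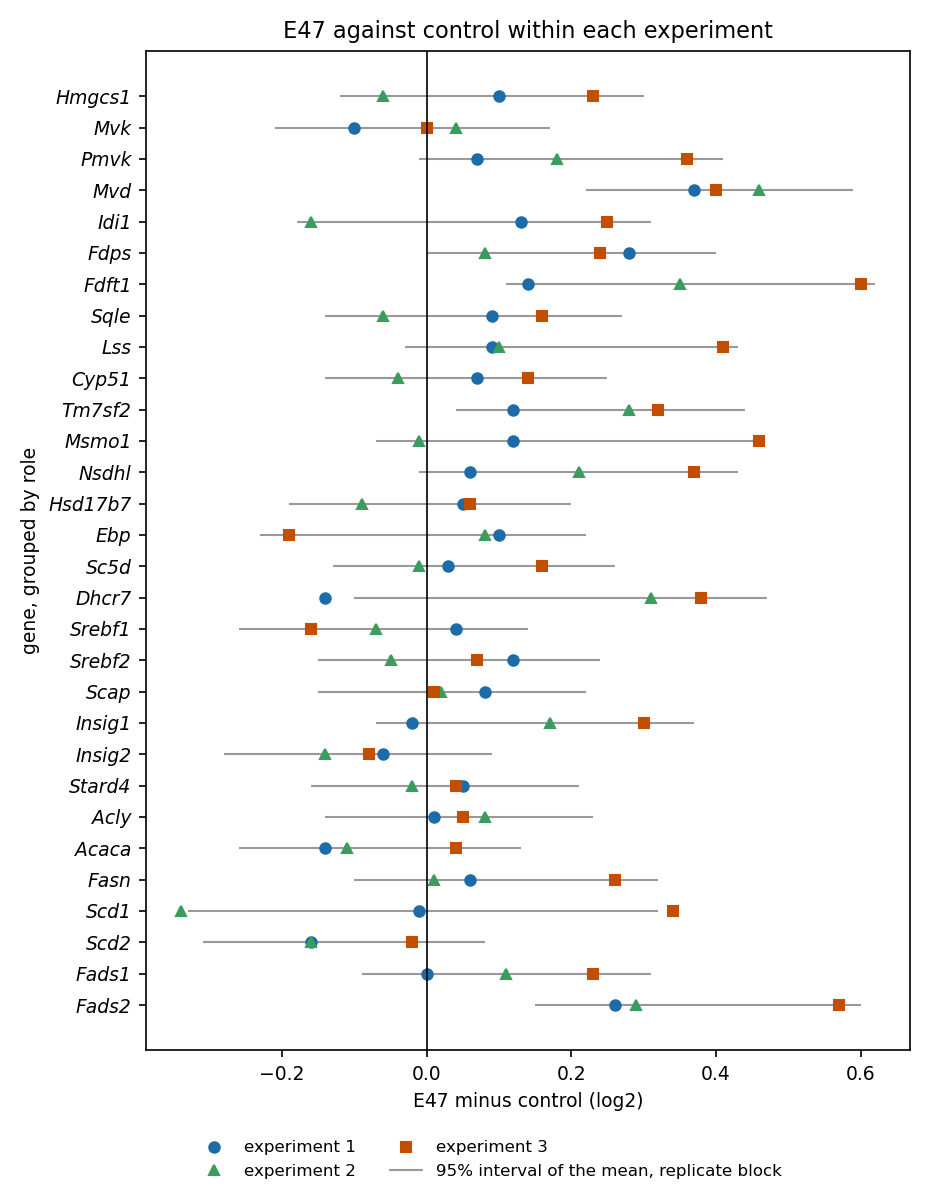
E47 minus control in log2 (x axis) for each gene (y axis, grouped by role) in experiment 1 (blue circles), 2 (green triangles) and 3 (orange squares), with the 95% interval of the mean from the limma fit with the replicate block (grey lines). Intervals of Mvd, Fads2, Fdft1 and Tm7sf2 lie above 0 before adjustment for 18193 genes, and those of most other genes span it.

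Of the regulators, Srebf1 had a log2 fold change of -0.06 (SE 0.08), Srebf2 of 0.05 (SE 0.17), Scap of 0.03 (SE 0.09), Insig1 of 0.15 (SE 0.19) and Insig2 of -0.09 (SE 0.14), each with an adjusted p of at least 0.932 in limma without a block. Taking the mean over probe sets turned the sign for Scap (-0.18) and Insig2 (0.04), as the probe sets of each disagreed in sign. With the block the 95% intervals were -0.26 to 0.14 for Srebf1, -0.15 to 0.24 for Srebf2, -0.15 to 0.22 for Scap, -0.07 to 0.37 for Insig1 and -0.28 to 0.09 for Insig2. Across all 30 genes the intervals with the block reached from -0.33 (Scd1) to 0.62 (Fdft1). The block lowered the median SE of the members from 0.17 to 0.08, and that of all genes from 0.11 to 0.09.

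Genes of the same metabolism outside the set were taken from lists. For comparison, 0.247% of all genes passed limma for E47 without the block, 1.14% with it and 3.2% between experiments. At an unadjusted p under 0.05 these shares were 6.65%, 12% and 17.9%. Of 10 measured genes of sterol handling and SREBP processing 0 passed limma for E47, with or without the block, or between experiments. At an unadjusted p under 0.05, 1 differed with E47, Npc1, a carrier of cholesterol out of lysosomes (log2 fold change 0.45), and 3 between experiments. Of 6 further sterol and isoprenoid branch genes 1 differed between experiments, Idi2, a second isomerase gene (9.74, 10.75 and 10.29 in the control samples, with means of both groups of 9.87, 10.85 and 10.41 in experiments 1 to 3; limma F test, adjusted p = 0.0118), and 0 passed limma for E47, with 0 at an unadjusted p under 0.05 without the block and 1, Idi2, with it. Its call between experiments was lost without control replicate 2 (0.0880) and E47 replicate 2 (0.107). The call was also lost with no group term (0.084). Idi2 is a close relative of Idi1, and shared signal between their probes was not tested.

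Of 19 fatty acid and lipid genes 1 rose with E47 in the fit with the block, Lpin2, a phosphatidate phosphatase (7.21, 7.35 and 7.13 (control 1 to 3) and 7.96, 8.71 and 8.10 (E47 1 to 3); log2 fold change 1.03, SE 0.13, adjusted p = 0.0218 in limma). Without the block it had an adjusted p of 0.173, and the blocked call was lost without experiment 2 (0.0696) and without experiment 3 (0.158). The list of sterol efflux and the sterol sensor LXR had 10 measured genes, 4 of them above the median of all probe sets. The esterification genes Soat1 and Soat2 were not among them. With the block 1 of the 10 fell, Abca1, the cholesterol efflux pump (log2 fold change -0.79, SE 0.12, adjusted p = 0.0413, limma). Abca1 had 6.92, 7.28 and 6.81 (control 1 to 3) and 5.93, 6.39 and 6.34 (E47 1 to 3). Each E47 sample lay below all 3 control samples. The adjusted p without the block was 0.254, and with the block it was 0.0565, 0.254 and 0.0638 without experiments 1, 2 and 3. With the experiment as a random block on all 6 arrays the adjusted p was 0.0661 for Abca1 and 0.037 for Lpin2 (limma).

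The LXR targets Abcg1, a second efflux pump, and Mylip, a ubiquitin ligase, differed between experiments and did so in another order than the sterol genes. Abcg1 had 7.89, 9.00 and 7.62 (control 1 to 3) and 7.92, 9.05 and 7.98 (E47 1 to 3) (limma F test, adjusted p = 0.00939), and Mylip 6.87, 7.46 and 6.88 and 6.82, 7.53 and 6.72 (0.0325). Both were highest in experiment 2. Abcg1 was lost without control replicate 2 (0.0892) and E47 replicate 2 (0.0806); Mylip was lost without either of these (0.163 and 0.341) and without control or E47 replicate 3 (0.0871 and 0.106), and with no group term (0.0661). Of the 4 further genes of SREBP control 0 passed in limma for E47 or between experiments, also at an unadjusted p under 0.05.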

How the data were processed

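RNA of 6 samples, 3 control and 3 E47, was measured on Affymetrix mouse arrays. The authors deposited a linear intensity for every probe set. Per the submitters' processing notes the tool was RMA (version not stated), a method that subtracts background, scales arrays to each other and merges probes. Array medians lay between 34.3 and 35.4, with 4.26 as the lowest value. Log2 of the deposited intensity was taken.

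Of 45101 probe sets, 34945 had 1 gene symbol, 932 several and 9160 none, beside 64 controls, and 0 symbols changed through Entrez numbers. The brightest probe set stood for each of 18193 genes. No dim gene was removed. E47 was compared with control, and the experiments with each other (F test, group as a term), with limma 3.58.1 in R 4.3.3, two-sided, at a Benjamini-Hochberg adjusted p under 0.05. Both fits were tested on simulated data.

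The members and lists were chosen with earlier results of these data known. Full values were given for the 5 regulators and for members past a threshold, or the 4 of lowest p where none passed. The design text pairs same-numbered samples by experiment, and their deviations from the group means correlated at 0.28, 0.67 and 0.43 over all genes. Between experiments 1 and 3 the values were 0.25 (control 3 with E47 1) and 0.18 (control 1 with E47 3). Where 1 sample was of experiment 2 they lay between -0.52 and -0.34. Over all genes, experiments 1 and 3 were thus set apart less clearly than experiment 2. Alternatives were blocks, scalings, brighter genes, probe set means and left-out arrays. Precision is limited by the number of arrays. Acat2 was not analysed here.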

Additional observations from a re-analysis of the deposited data

How the results depend on the processing

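The members changed by E47 stayed at 0 of 30 in all 19 alternatives. The median log2 fold change of the members was 0.07, and with 1 array or experiment left out it ran from -0.05 to 0.22. The genes called for E47 numbered 45, 208 with the replicate block and 92 with the random block, 15 to 42 with 1 array left out, 9, 65 and 5 without experiments 1, 2 and 3, and 288, 74 and 41 without them with the block; the block changed no call of a member. The members that differed between experiments numbered 6, where 3.2% of all genes did. With quantile normalization they numbered 11 (3.89% of all genes), and with cyclic loess 10 (3.78%). The mean over probe sets gave 4 (3.32%), with 2 of the 6, Hsd17b7 and Mvd, among them. Among genes brighter than the median, where fewer genes were tested, the members called numbered 14 (8.48%). With the experiment alone and no group term 0 were called (0.649%), and 19 had an unadjusted p under 0.05 (13.8%). With 1 array left out the members called numbered 0 to 3 (0.506% to 4.24% of all genes). The genes that differed numbered 582 of 18193, 961 of 11328 among brighter genes and 118 with no group term, and 92 to 772 with 1 array left out.

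Signs of small E47 changes turned in places. Hsd17b7 (0.007) had -0.006 with quantile normalization and -0.002 with cyclic loess, -0.012 without experiment 1 and -0.022 without experiment 3, with or without the block. Scap (0.034) had -0.179 and Insig2 (-0.091) 0.038 with the mean over probe sets. With arrays or experiments left out, with or without the replicate block, the ranges were -0.095 to 0.175 for Srebf2, -0.006 to 0.076 for Scap, -0.013 to 0.347 for Insig1, -0.188 to 0.028 for Insig2, -0.205 to 0.199 for Hsd17b7, -0.044 to 0.4 for Fdps, -0.136 to 0.311 for Hmgcs1 and -0.047 to 0.434 for Lss. None of these E47 changes passed limma in the settings run. The causes were not tested. Arrays limit precision by their number. The members were all above the median of all probe sets, as were 11326 of all 18193 genes, and whether low signal limited any of them was not tested.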

Other observations

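Lists of growth and division genes gave another order of the experiments than the sterol genes. Beside the counts below, 3.2% of all genes passed the limma F test between experiments after adjustment, and 17.9% had an unadjusted p under 0.05. The 17 measured proliferation genes had mean log2 levels of 11.31, 11.31 and 11.18 (control 1 to 3) and 11.34, 11.51 and 11.21 (E47 1 to 3), and 0 of them differed between experiments at an adjusted p under 0.05 in limma (4 at an unadjusted p under 0.05). Their median difference between experiments 3 and 1 was -0.14, where the sterol and lipid genes had 0.42. The 10 genes of metabolic growth, such as Myc, amino acid and glucose carriers and glycolytic enzymes, had a median difference of 0.01 between experiments 3 and 1 and of -0.12 between experiments 2 and 1. Of these 0 passed the F test in limma after adjustment, and 4 had an unadjusted p under 0.05. Il2, the growth factor gene of T cells, went from experiment 1 to 3 in the order of the sterol genes, with log2 levels of 11.93, 12.32 and 12.96 (control 1 to 3) and 11.74, 12.40 and 12.80 (E47 1 to 3) (limma F test, adjusted p = 0.0156). It was the 1 gene of 8 on the activation list to pass, and 5 had an unadjusted p under 0.05. Over the list the median difference was 0.03 between experiments 3 and 1 and -0.15 between 2 and 1. The early response genes of the list were split. Egr1 (experiment means of 11.36, 11.04 and 10.71) and Egr2 (9.93, 9.57 and 9.51) had the opposite order. Their adjusted p was 0.114 and 0.112 in the limma F test. Nr4a1 had the order of the sterol genes (11.17, 11.30 and 11.40, limma F test, adjusted p = 0.47).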
